A study of Mus musculus with 2 samples.

Results

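Lipid uptake, storage and efflux were followed through 10 genes, Lpl, Fabp5, Fabp3, Lipa, Npc2, Soat1, Plin2, Abca1, Abcg1 and Ch25h, of 31053 genes counted in myeloid cells of the mouse cortex. The genes were chosen by symbol for their known roles, with earlier results of these data known. Each was found once in both libraries. The mice were male 5xFAD hemizygotes, a transgenic amyloid model, on C57BL/6J, with treatment from an age of 4 months and an age of 5.5 months given for the samples. Both groups received 5 uL of the photosensitiser Visudyne into the cisterna magna. In the control group nothing followed, whereas in the photoconversion group 5 steps of transcranial red light at 689 nm, which is non-thermal, activated the dye to ablate meningeal lymphatic vessels. The procedure was given again after 3 weeks and tissue was collected 3 weeks after the last injection. Live cortical singlets negative for Ly6G and positive for CD45 and CD11b were sorted from 3 mice per group and pooled into 1 droplet library per group. Both groups therefore carried the amyloid transgenes and the dye, and neither wild-type nor dye-free mice were analysed here.

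Microglia take up lipid from lipoproteins, myelin debris and dying cells. Lipases at the cell surface and in the lysosome free fatty acids and cholesterol, carrier proteins move them through the cytoplasm, and the surplus is esterified into lipid droplets or handed by ABC transporters to apolipoprotein E, encoded by Apoe. In amyloid models, microglia at plaques are known to gain Cst7, which encodes a cysteine protease inhibitor, and to lose P2ry12, which encodes a purinergic receptor of resting microglia.

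The control library held 2672902 unique molecular identifiers (UMIs) and the photoconversion library 2038693, each over 2000 barcodes. Cells were barcodes with 200 or more detected genes and no more than 10% mitochondrial UMIs, which left 555 control cells (median 2670 UMIs) and 317 photoconversion cells (median 3410 UMIs). No barcode sequence was shared between the kept cells of both libraries. All 13 microglial marker genes were present in both, and together they held 62248 and 60588 counts per 1000000 UMIs. With 1 library per group there is no replicate check, so no test was made, and all intervals are 95% intervals that cover counting error only. Levels are given in that unit, CPM, as UMIs of a gene per 1000000 UMIs of the same cells. They are compared between groups of cells and not between genes.

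Kept cells were divided by their own counts of Cst7 and P2ry12. In the control library 207 cells had more Cst7 (37.3%, 33.3 to 41.5%), 290 had more P2ry12 and 58 had equal counts. After photoconversion 157 cells had more Cst7 (49.5%, 43.9 to 55.2%), 133 had more P2ry12 and 27 had equal counts. These Cst7-dominant and P2ry12-dominant classes are ranges and not cell types, and 57 control and 31 photoconversion cells differed by a single UMI. The Cst7-dominant cells were also deeper, with medians of 4655 against 2206 UMIs in the control and 5852 against 2739 after photoconversion. For some of the genes, class differences are therefore also given with each cell reduced to 1000 random UMIs.

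Sequences upstream of 3 of the genes are shown because these genes carried the contrasts described below. Abca1 was the gene of the set with the lowest level in Cst7-dominant cells relative to P2ry12-dominant cells. Ch25h and Lipa lie next to each other on chromosome 19, on the same strand with 17153 bases and 0 annotated genes between them, yet their ratios between the classes of cells, given below, were far apart. The sequences are the 250 bases before the annotated start, from RefSeq on GRCm38.p6, written 5′ to 3′ on the strand of the gene, with matches to the searched motifs in capitals. Of the 10 genes, 7 had such a sequence.
Abca1, chr4:53159896-53160145, minus strand: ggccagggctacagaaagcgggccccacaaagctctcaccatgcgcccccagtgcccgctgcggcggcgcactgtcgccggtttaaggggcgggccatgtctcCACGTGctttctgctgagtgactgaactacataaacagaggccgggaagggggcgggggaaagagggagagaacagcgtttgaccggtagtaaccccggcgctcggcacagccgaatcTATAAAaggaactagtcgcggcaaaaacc
Ch25h, chr19:34475149-34475398, minus strand: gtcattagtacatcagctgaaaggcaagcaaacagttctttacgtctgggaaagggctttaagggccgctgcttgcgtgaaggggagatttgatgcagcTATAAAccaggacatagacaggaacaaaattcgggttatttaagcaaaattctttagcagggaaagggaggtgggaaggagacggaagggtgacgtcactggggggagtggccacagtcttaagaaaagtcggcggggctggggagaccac
Lipa, chr19:34527475-34527724, minus strand: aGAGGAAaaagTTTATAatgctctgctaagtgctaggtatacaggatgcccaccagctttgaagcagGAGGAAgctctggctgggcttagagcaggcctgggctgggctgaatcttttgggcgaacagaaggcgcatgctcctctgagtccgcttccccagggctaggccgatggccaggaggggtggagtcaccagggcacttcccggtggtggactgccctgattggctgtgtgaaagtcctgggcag

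Each motif was searched on both strands, and matches were allowed to overlap. They were GAGGAA, the core bound by the myeloid factor PU.1, CACGTG, the E-box of the lysosomal MiT/TFE factors, TGANTCA, the site of AP-1, TATAAA, the TATA box, and the direct repeat of the sterol-sensing LXR receptors. The Abca1 window held CACGTG from 147 to 142 bases before the start and TATAAA from 29 to 24 bases before it. On its opposite strand it also held the LXR pattern except for the first base, which the exact search did not count. The Ch25h window held TATAAA from 151 to 146 bases before its start. The Lipa window held GAGGAA at 249 to 244 and at 183 to 178 bases and, on the opposite strand, TATAAA at 239 to 234 bases. The windows of Fabp3, Npc2, Soat1 and Plin2 held none of the 5 motifs. Among 32851 promoter windows of the same length, 23.3% held GAGGAA, 6.02% CACGTG, 6.75% TGANTCA, 12.4% TATAAA and 0.0791% the direct repeat. A match is a run of letters, and these motifs were not tied to any measured level.

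Photoconversion over control was the comparison the study was built on. Over all kept cells, the levels of Lpl, Fabp5 and Npc2 were slightly higher after photoconversion, and the other 7 genes had intervals that included no difference. None of the 10 genes was past 1.5-fold in either direction, against 3.02% higher and 6.51% lower among 6256 genes with at least 50 UMIs over both libraries. The median log2 ratio of the 10 genes was 0.06, beside -0.07 over all genes tested.

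Lpl (ENSMUSG00000015568, chr8:68880491-68907448) encodes lipoprotein lipase, the secreted enzyme that frees fatty acids from triglyceride-rich lipoproteins. Its level was 423 (397 to 449) in the control and 466 (436 to 499) after photoconversion, a ratio of 1.10 (1.01 to 1.21). At equal depth the ratio was 0.987, so the direction for Lpl turned. The gene with the highest ratio of the set was Fabp5 (ENSMUSG00000027533, chr3:10012548-10016607), an intracellular carrier of fatty acids, at 213 (195 to 232) and 280 (256 to 306), a ratio of 1.32 (1.16 to 1.49). Its heart-type relative Fabp3 (ENSMUSG00000028773, chr4:130308595-130315463) stood at 45.8 and 47.9, a ratio of 1.05 (0.781 to 1.40), and at 2.26 with each cell at 1000 UMIs, which for Fabp3 rests on 10 and 11 cells with a UMI.

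Of the lysosomal genes Npc2 was measured well, while Lipa rested on 207 control and 162 photoconversion UMIs. Npc2 (ENSMUSG00000021242, chr12:84754562-84773152) encodes the soluble lysosomal protein that binds freed cholesterol and passes it to Npc1. Its level was 2103 (2045 to 2161) and 2325 (2256 to 2396), a ratio of 1.11 (1.06 to 1.15). Lipa (ENSMUSG00000024781, chr19:34492318-34527474), the lysosomal acid lipase that splits cholesteryl esters and triglycerides, was at 85.4 and 89.2, a ratio of 1.04 (0.845 to 1.29).

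The storage genes gave no difference beyond counting error. Soat1 (ENSMUSG00000026600, chr1:156424525-156474331), which esterifies cholesterol for storage, was at 60.7 and 60.6, a ratio of 0.998 (0.772 to 1.29) that lay above 1 under another scaling. Plin2 (ENSMUSG00000028494, chr4:86648386-86670060), a coat protein of lipid droplets, was at 39.6 and 32.5, a ratio of 0.820 (0.583 to 1.15).

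The efflux genes and the oxysterol gene also sat close together in both libraries. Abca1 (ENSMUSG00000015243, chr4:53030787-53159895) exports cholesterol and phospholipid to lipid-poor apolipoproteins and was at 52.8 and 54.5, a ratio of 1.03 (0.786 to 1.35). Abcg1 (ENSMUSG00000024030, chr17:31057675-31117988), which passes cholesterol on to particles that already carry lipid, was at 45.0 and 47.9, a ratio of 1.07 (0.794 to 1.42). Ch25h (ENSMUSG00000050370, chr19:34473778-34475164) encodes cholesterol 25-hydroxylase, the source of 25-hydroxycholesterol, and was at 72.2 and 74.3, a ratio of 1.03 (0.816 to 1.29).

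**Figure D1:**
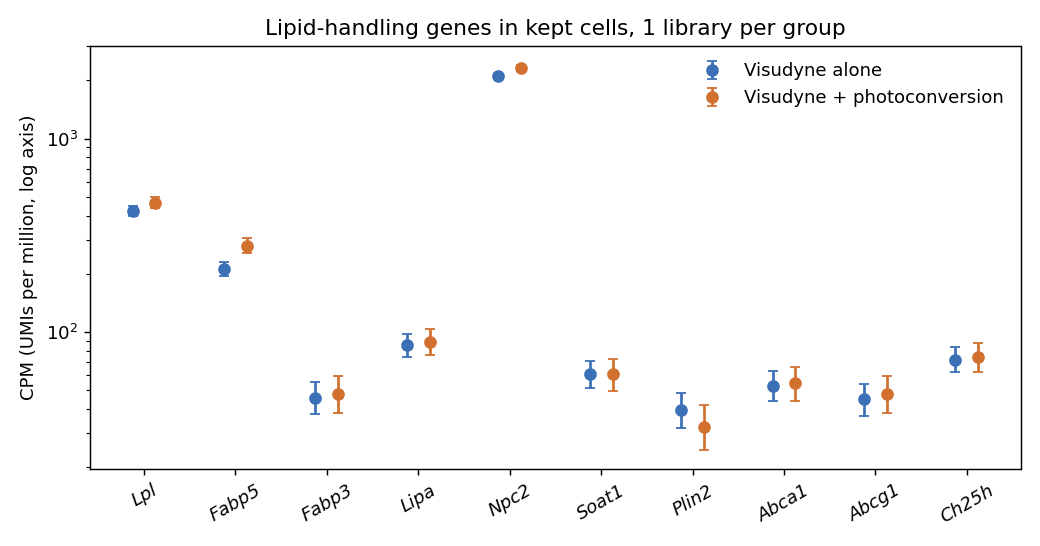
Level of each gene in kept cells of the control library (Visudyne alone, blue) and the photoconversion library (orange), in CPM on a log axis, with 95% counting intervals. The pairs of points lie close together for every gene, and the widest clear gap is that of Fabp5, at 213 and 280.

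The 10 genes together held 3139 CPM in the control and 3479 after photoconversion, a ratio of 1.11 (1.07 to 1.15), and Npc2 alone supplied 67.0% and 66.8% of those UMIs. Without Npc2 the ratio was again 1.11 (1.05 to 1.18). The share of Cst7-dominant cells differed between the libraries as given above. When both libraries were given the same mix of classes, an alternative added after the data were seen, the summed ratio was 1.04, the Lpl ratio 1.01 and the Fabp5 ratio 1.13.

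Between the classes the set divided sharply. Lpl, the carriers Fabp5 and Fabp3, the lysosomal Npc2 and the oxysterol gene Ch25h were higher in Cst7-dominant cells of both libraries. The exporter Abca1 was lower there in both libraries, and Abcg1 was lower after photoconversion. Lipa had nearly the same level in both classes. In the control library 5 of the 10 genes were past 1.5-fold higher and 1 lower, beside 11% higher and 32.2% lower among 4312 genes with at least 50 UMIs. In the photoconversion library 6 were higher and 2 lower, beside 12.9% and 27.9% of 3420 genes. Median log2 ratios of the 10 genes were 0.73 and 0.99, beside -0.29 and -0.17 over all genes tested. Because the 10 genes were chosen with earlier results of these data known, these values describe the set and do not test it. Scaling by trimmed mean of M-values (TMM) instead of total UMIs moved every log2 class ratio up by 0.275 in the control and 0.156 after photoconversion, and no direction described for these genes turned with it.

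**Figure D2:**
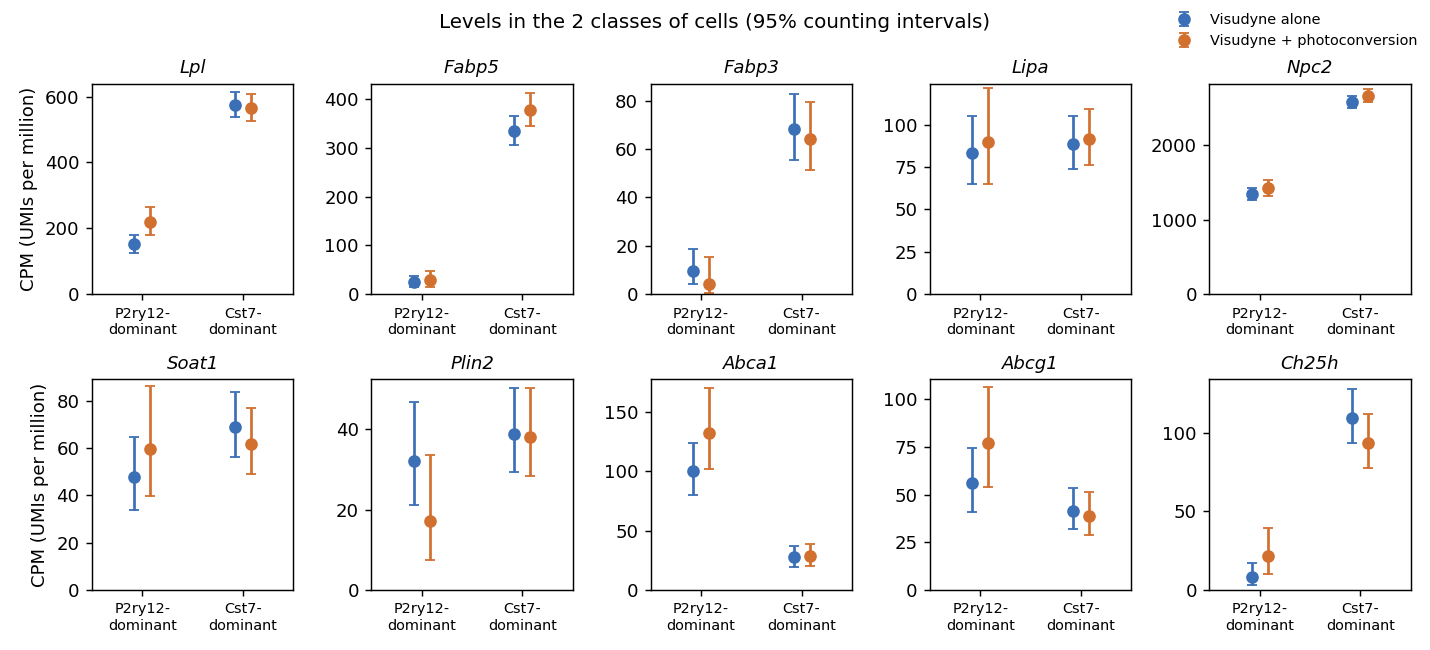
Level of each gene in P2ry12-dominant and Cst7-dominant cells of the control (blue) and photoconversion (orange) libraries, in CPM with 95% counting intervals. Lpl, Fabp5, Fabp3, Npc2 and Ch25h are higher on the right in both colours, Abca1 is lower on the right, and Lipa is level.

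Lpl stood at 151 (126 to 180) in P2ry12-dominant and 575 (537 to 615) in Cst7-dominant control cells, a ratio of 3.80 (3.15 to 4.62). After photoconversion it stood at 218 (178 to 265) and 564 (524 to 606), a ratio of 2.59 (2.10 to 3.21). Its UMIs among P2ry12-dominant cells were gathered in few cells, since the 10 richest held 79.5% in the control and 86.3% after photoconversion and a single cell held 24 of 127 and 20 of 102. Among Cst7-dominant cells the 10 richest held 31.4% and 37.6%. Leaving out the 10 richest cells of each class widened the Lpl ratio to 13.05 and 11.3.

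Both fatty acid carriers were scarce outside the Cst7-dominant class. Fabp5 was at 23.8 (14.5 to 36.8) in P2ry12-dominant and 335 (306 to 366) in Cst7-dominant control cells, a ratio of 14.1 (9.01 to 23.2). After photoconversion the Fabp5 levels were 27.8 (14.8 to 47.5) and 377 (345 to 412), a ratio of 13.6 (7.86 to 25.7). Cst7-dominant cells supplied 95.3% and 97.1% of all Fabp5 UMIs in kept cells, while they supplied 60.6% and 72.1% of the UMIs of all genes. With each cell at 1000 UMIs the Fabp5 ratios were 10.6 and 6.87 for control and photoconversion, and without the 10 richest cells of each class they were 18.7 and 48.9. The last of these divides by the 2 UMIs that remained in P2ry12-dominant photoconversion cells, under the floor of 3 counts, and gives no size.

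Fabp3 followed the same order with fewer counts. In the control it was at 9.52 (8 UMIs) and 68.2 (100 UMIs), a ratio of 7.16 (3.50 to 17.0). The photoconversion levels of Fabp3 were 4.28 (2 UMIs) and 64.1 (84 UMIs), a ratio of 14.99 with an interval from 4.02 to 126. The photoconversion ratio divides by 2 UMIs, under the floor of 3 counts, and gives no size. The Fabp3 ratio ranged from 4.70 to 13.4 over 11 alternatives in the control and from 4.80 to 27.9 over 10 after photoconversion. Every ratio obtained was above 1, and alternatives that left no P2ry12-dominant UMI gave none.

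The lysosomal genes parted company. Npc2 was at 1340 (1263 to 1421) in P2ry12-dominant and 2576 (2495 to 2659) in Cst7-dominant control cells, a ratio of 1.92 (1.80 to 2.06). The photoconversion levels of Npc2 were 1420 (1314 to 1532) and 2661 (2574 to 2751), a ratio of 1.87 (1.72 to 2.04). Npc2 was spread over many cells, with 15.5% and 19.8% of its Cst7-dominant UMIs in the 10 richest. Lipa was at 83.3 and 88.6 in the control, a ratio of 1.06 (0.790 to 1.44), and at 89.8 and 91.6 after photoconversion, a ratio of 1.02 (0.712 to 1.49). When every cell counted equally whatever its depth, the Lipa ratio was 0.709 and 0.657.

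Neither storage gene had a class difference that held in both libraries. Soat1 was at 47.6 and 68.8 in the control, a ratio of 1.45 (0.994 to 2.14), and at 59.9 and 61.8 after photoconversion, a ratio of 1.03 (0.665 to 1.65). With classes assigned from thinned counts the control ratio of Soat1 was 0.790. Plin2 was at 32.1 and 38.9 in the control, a ratio of 1.21 (0.752 to 1.99). After photoconversion Plin2 was at 17.1, from 8 UMIs, and 38.2, a ratio of 2.23 (1.05 to 5.45). The Plin2 ratio moved between 1.14 and 5.93 over the alternatives in the control and between 1.41 and 6.70 after photoconversion. The value of 6.70 came with each cell at 1000 UMIs, where 1 P2ry12-dominant cell had a Plin2 UMI, and gives no size.

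The exporters ran the other way. Abca1 was at 99.97 (79.7 to 124) in P2ry12-dominant and 27.3 (19.5 to 37.1) in Cst7-dominant control cells, a ratio of 0.273 (0.182 to 0.402). After photoconversion the Abca1 levels were 133 (102 to 170) and 28.2 (19.9 to 38.9), a ratio of 0.213 (0.138 to 0.325). P2ry12-dominant cells thus supplied 65.6% and 62.6% of the Abca1 UMIs from 34.7% and 25.7% of all UMIs. The ratio stayed between 0.179 and 0.359 over 12 alternatives in the control and between 0.150 and 0.420 after photoconversion. Abcg1 was at 55.9 and 41.6 in the control, a ratio of 0.743 (0.50 to 1.11), and at 77.0 and 38.9 after photoconversion, a ratio of 0.506 (0.324 to 0.798). It was 0.434 in the control when cells counted equally and 0.274 after photoconversion with classes from thinned counts.

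Ch25h was at 8.33 (7 UMIs) and 110 (161 UMIs) in the control, a ratio of 13.2 (6.25 to 33.3). After photoconversion it was at 21.4 (10 UMIs) and 93.9 (123 UMIs), a ratio of 4.39 (2.31 to 9.39). With each cell at 1000 UMIs the ratio was 5.39 in the control and 4.19 after photoconversion. There only 3 control and 2 photoconversion P2ry12-dominant cells had a Ch25h UMI, so these ratios give no size and cannot be compared. The control ratio was 21.2 with classes that differed by at least 3 UMIs. Its neighbour Lipa, described above, had ratios near 1, and the 2 genes share a strand and a chromosome segment but not a class pattern.

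**Figure D3:**
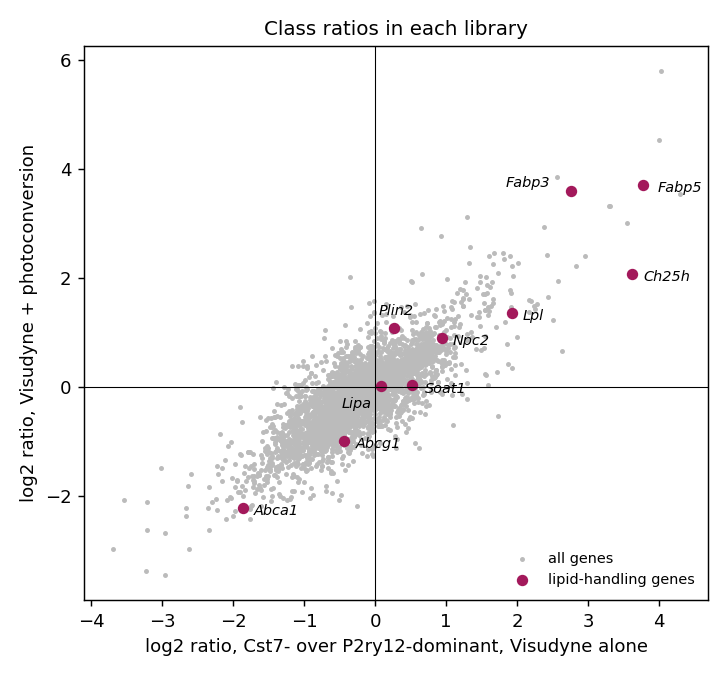
Log2 ratio of Cst7-dominant over P2ry12-dominant cells for each gene in the control library (horizontal) and the photoconversion library (vertical), with grey points for all 3375 genes ranked in both and magenta points for the 10 lipid genes. Fabp5, Fabp3 and Ch25h lie at the upper right, Abca1 lies at the lower left, and Lipa and Soat1 lie near the centre.

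Among 3375 genes with enough UMIs in both libraries, Fabp5 had the 4th highest class ratio in each library. Lpl had places 30 and 93 in the control and photoconversion libraries. No rank is given for Fabp3 and Ch25h, whose P2ry12-dominant levels rest on 2 to 10 UMIs. From the low end Abca1 was 46th and 15th. For comparison the class ratio of Apoe, the lipid carrier itself, was 4.04 (3.87 to 4.21) and 4.81 (4.56 to 5.08).

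The class ratios of the libraries can also be set against each other. For Lpl the photoconversion ratio was 0.680 of the control ratio (0.515 to 0.899), and for Ch25h it was 0.333 (0.123 to 0.901). For the other 8 genes the interval included 1. These intervals are normal approximations on the log scale and not exact, which matters most at low counts. The Ch25h value rests on 7 control and 10 photoconversion UMIs in P2ry12-dominant cells, of which a single photoconversion cell held 6. Lpl differed between libraries on the P2ry12-dominant side, where its level was 1.44 times that of the control (1.10 to 1.89), while in Cst7-dominant cells the ratio between libraries was 0.982 (0.888 to 1.09). Without the 10 P2ry12-dominant cells richest in Lpl in each library, the levels were 33.3 and 35.9 and the ratio was 1.08. This alternative was added after the data were seen.

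Within a class, none of the 10 genes that reached 50 UMIs differed by 1.5-fold between libraries. In Cst7-dominant cells the summed ratio was 1.02 (0.986 to 1.06), Fabp5 was at 1.13 (0.993 to 1.28) and Ch25h at 0.856 (0.671 to 1.09), and 0 of 10 genes were past 1.5-fold, beside 4.15% higher and 4.8% lower among 4479 genes. In P2ry12-dominant cells only Lpl, Lipa, Npc2, Soat1, Abca1 and Abcg1 had at least 50 UMIs, and 0 of these 6 were past 1.5-fold, beside 3.95% higher and 7.94% lower among 3087 genes. The summed ratio there was 1.12 (1.03 to 1.21), and without Npc2 it was 1.27 (1.09 to 1.47), and both intervals lay above 1. All 6 had a ratio above 1, with a median log2 ratio of 0.37 beside -0.06 over all genes tested, of which 42.7% were above 0. Only the interval of Lpl excluded 1 among these 6. Abca1 was at 1.33 (0.940 to 1.86) and Abcg1 at 1.38 (0.866 to 2.17). Lpl supplied 127 and 102 of the 430 and 303 UMIs that remained without Npc2. The 4 genes below the minimum, Fabp5, Fabp3, Plin2 and Ch25h, had 20, 8, 27 and 7 UMIs in the control and 13, 2, 8 and 10 after photoconversion. Their ratios were 1.17, 0.449, 0.533 and 2.57, on both sides of 1, and the interval of each included 1.

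Markers of other cells were low in both classes but not equal between them. The 7 border macrophage markers summed to 52.5 in Cst7-dominant and 11.9 in P2ry12-dominant control cells, and to 11.5 and 2.14 after photoconversion, with F13a1 and Lyve1 at 0 in all Cst7-dominant cells. The 5 monocyte markers ran opposite, at 7.50 and 83.3 in the control and at 9.16 and 44.9 after photoconversion. Both lists also differed between the libraries over all kept cells. Monocyte markers summed to 100.7 in the control and 19.3 after photoconversion, and border macrophage markers to 39.6 and 9.91. Control cells with equal Cst7 and P2ry12 counts held 163 of the 244 control monocyte marker UMIs. The part of these cells in the library comparison was not tested. Without cells holding 3 or more UMIs of either list, an alternative added later, the class ratios of Lpl, Fabp5 and Abca1 were 3.70, 14 and 0.264 in the control and 2.66, 12.7 and 0.197 after photoconversion. The 10 endothelial and mural markers summed to 1012 and 1253 in the control and to 1137 and 744 after photoconversion. Cldn5, Flt1, Vtn, Rgs5 and Acta2 were at 0 in P2ry12-dominant photoconversion cells. In photoconversion barcodes over 10% mitochondrial UMIs, the listed gene Bsg alone supplied the whole sum of 670.5. These sums are therefore not read as endothelial or mural RNA, and their part in the results was not tested.

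The classes hide a gradient, which was followed in cells with at least 5 UMIs of Cst7 and P2ry12 together. These cells were divided into 4 bins by the share of Cst7 in that sum, which held 188, 30, 54 and 121 control cells and 89, 19, 38 and 96 photoconversion cells. The bin from 25 to 50% after photoconversion thus rests on fewer than 20 cells, and median depth was higher in the upper bins. Lpl was already high in that bin, whereas Fabp3 and Ch25h were high only in the upper 2 and Fabp5 mainly in the last.

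Lpl in the control was at 97.8, 387, 574 and 624 from the lowest to the highest Cst7 share. In the photoconversion library it was at 91.1, 497, 404 and 637. In the bin from 25 to 50%, 12 of 30 control and 11 of 19 photoconversion cells had an Lpl UMI. Without the single richest cell its level there was 288 and 395, and with at least 10 UMIs required it was 347 and 423, all of them above the lowest bin.

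Fabp5 was at 17.9, 38.0, 90.8 and 439 in the control and at 27.3, 37.5, 156 and 456 after photoconversion. The step between the upper bins was therefore wider for Fabp5 than for Lpl in both libraries. Fabp3 was at 3.26, 15.2, 47.7 and 79.8 in the control and at 3.04, 9.37, 54.9 and 64.9 after photoconversion. Ch25h was at 6.52, 0, 104 and 121 in the control, where the 0 allows up to 28.02, and at 21.3, 18.7, 75.1 and 104 after photoconversion.

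Npc2 was higher in each successive bin by smaller steps, at 1310, 1640, 2302 and 2770 in the control and at 1333, 1724, 2578 and 2732 after photoconversion. Abca1 was at 109, 76.0, 13.6 and 33.3 in the control and at 167, 28.1, 23.1 and 29.8 after photoconversion. It was low in the upper 2 bins of both libraries. Lipa stayed between 60.8 and 93.1 in the control and between 74.97 and 97.2 after photoconversion, with no order along the share.

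**Figure D4:**
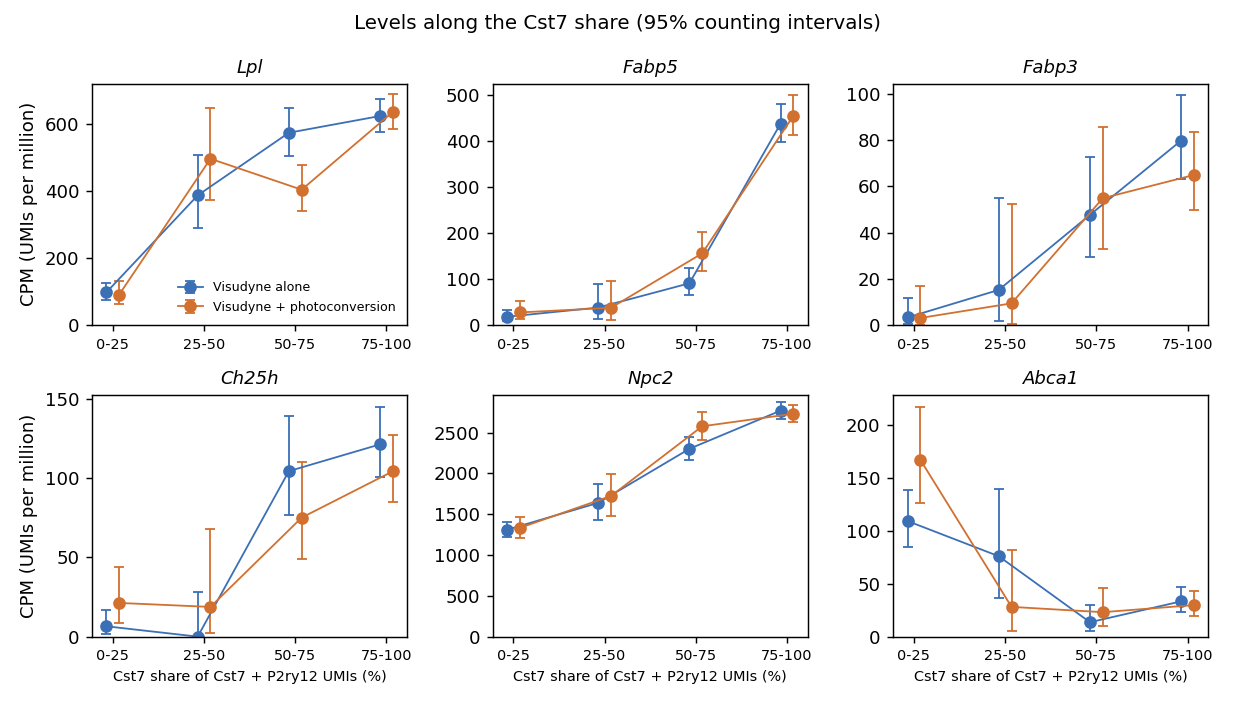
Level of 6 genes in CPM (95% counting intervals) against the Cst7 share of each cell's Cst7 and P2ry12 UMIs, in 4 bins, for the control (blue) and photoconversion (orange) libraries. Lpl is already at 387 and 497 in the 25 to 50% bin, Fabp5 stands out in the last bin at 439 and 456, and Abca1 is highest in the first at 109 and 167.

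Counted as cells with at least 1 UMI, the same contrasts appeared. Lpl was detected in 124 of 207 Cst7-dominant control cells (59.9%, 52.9 to 66.6%) and in 32 of 290 P2ry12-dominant cells (11.03%, 7.67 to 15.2%). After photoconversion it was detected in 65.0% of 157 and 17.3% of 133 cells. With each cell at 1000 UMIs the Lpl shares were 31.1% and 7.33% in the control and 26.1% and 8.40% after photoconversion. Thinning left out 24 and 58 cells of these classes in the control and 15 and 14 after photoconversion.

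Fabp5 was detected in 41.1% and 6.21% of the classes in the control and in 51.6% and 9.02% after photoconversion, and when thinned in 17.5% and 2.59% and in 21.1% and 4.202%. Ch25h was detected in 25.6% and 1.38%, and in 28.03% and 3.01%, and when thinned in 7.65% and 1.29% and in 7.04% and 1.68%. Abca1 went the other way, at 14.5% and 20.7% in the control and 15.9% and 33.1% after photoconversion, and when thinned at 3.28% and 9.48% and at 3.52% and 13.4%. Npc2 was detected in 93.7% and 82.4% and in 96.2% and 91.7% of the classes. When thinned, the Npc2 shares were 92.35% and 74.1% in the control and 85.9% and 74.8% after photoconversion.

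Free RNA in droplets can add to such shares, and its amount was not measured. In the few kept cells with more endothelial, astrocyte, oligodendrocyte or neuron marker UMIs than microglial ones, 10 in the control with a median of 3579 UMIs and 8 after photoconversion with a median of 697.5, Lpl was detected in 2 and 0 cells, Fabp5 in 2 and 3, and Abca1 and Ch25h in 0. The Lpl and Fabp5 shares of P2ry12-dominant control cells were not above those of these cells. Among these control cells a single cell held 5 of 8 Lpl UMIs and a single cell 8 of 9 Fabp5 UMIs. Cells this few and uneven cannot set a floor, and neither share alone is read as expression. The Lpl level of P2ry12-dominant cells was 151 in the control and 218 after photoconversion, beside 88.6 and 201.5 in barcodes under 200 genes. In barcodes under 200 genes, Fabp5 was at 143 and 193 and Npc2 at 1199 and 1386, while Abca1 was at 95.4 and 64.5. The Fabp5 level of P2ry12-dominant cells lay below that of these shallow barcodes in both libraries.

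Within the Cst7-dominant class, genes were often found in the same cells. In the control 61 cells had both Lpl and Fabp5, which were 49.2% of the Lpl cells and 71.8% of the Fabp5 cells, while 41.1% of the whole class had Fabp5. After photoconversion 60 cells had both, 58.8% of the Lpl cells and 74.1% of the Fabp5 cells, against 51.6% with Fabp5 in the class. Of the Ch25h cells 86.8% and 86.4% also had Lpl. Cells with both Lpl and Fabp5 had medians of 12292 and 13456 UMIs, far above the class medians. Over the 45 pairs of the 10 genes, the median Spearman rho across Cst7-dominant cells at 1000 UMIs was -0.03 for control cells and -0.00189 for photoconversion cells. In the control 0 pairs reached 0.2, and after photoconversion 3 did, the highest being Lipa with Ch25h at 0.23. Across all kept cells at 1000 UMIs the median was 0.01 and 0.04, and 1 pair reached 0.2 in each library, Lpl with Ch25h in the control at 0.24 and Abca1 with Abcg1 after photoconversion at 0.20. No pair reached it in both libraries.

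Apoe, the receiver of the lipid that Abca1 and Abcg1 export, was at 8571 in control and 11257 in photoconversion cells. Across 439 control and 272 photoconversion cells at 1000 UMIs, its Spearman rho with Lpl was 0.24 and 0.22, with Fabp5 0.21 and 0.21 and with Npc2 0.30 and 0.19. For the other 7 genes rho lay between -0.11 and 0.13, which in counts this sparse is no finding. For the 10 genes summed rho was 0.36 and 0.27, and without Npc2 it was 0.23 and 0.24. These cells share a library, and depth before thinning itself had a rho of 0.31 and 0.16 with the sum and of 0.26 and 0.31 with Apoe.

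The relation was weaker within the classes. Among Cst7-dominant cells alone (183 and 142) the summed rho with Apoe was 0.25 and 0.16, and among P2ry12-dominant cells (232 and 119) it was 0.14 and -0.03. Lpl within the Cst7-dominant class had a rho of 0.17 and 0.20, Fabp5 0.19 and 0.07, and Npc2 0.20 and 0.06. The exporter Abca1, whose product loads apolipoprotein E, had a rho with Apoe of -0.05 and -0.06 over all cells and of 0.02 and 0.10 among Cst7-dominant cells.

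Dividing the Cst7-dominant cells into 3 equal parts by Apoe gave levels to this relation. In the control Lpl was at 377 (239 to 566), 607 (427 to 836) and 656 (469 to 893) from the lowest to the highest Apoe. After photoconversion it was at 250 (129 to 437), 383 (227 to 605) and 681 (466 to 961). Lpl thus had its highest level in the cells richest in Apoe in both libraries. Fabp5 was at 98.4, 262 and 459 in the control but at 250, 340 and 277 after photoconversion, with no order there. Median depth before thinning was 4184, 5177 and 9557 UMIs over the 3 control parts and 4812, 9401 and 7972 after photoconversion, and its part was not tested.

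**Figure D5:**
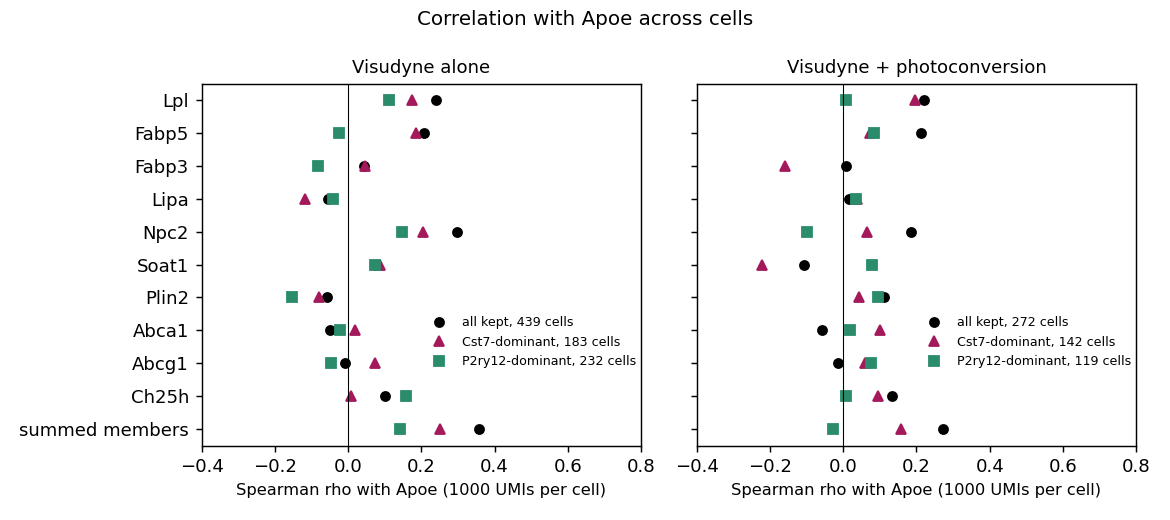
Spearman rho of each gene, and of the 10 genes summed, with Apoe across cells thinned to 1000 UMIs, in the control (left) and photoconversion (right) libraries, over all kept cells (black circles) and within each class (triangles and squares). Lpl, Fabp5, Npc2 and the sum lie to the right of 0 over all cells in both panels, and most within-class points lie closer to 0.

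Lpl, Fabp5 and Npc2 had at least 200 UMIs in each library, and the genes most like them across cells were sought among 862 genes. For Lpl these were Gnas, encoding a G-protein subunit, at a rho of 0.26 and 0.26, Apoe, and Ctsb, a lysosomal protease, at 0.22 and 0.26. For Fabp5 they were Cst7 at 0.26 and 0.30 and Apoe. For Npc2 they were Tyrobp, the signalling adaptor of Trem2, at 0.34 and 0.33, Cst7 at 0.34 and 0.26, and B2m, the light chain of class I molecules, at 0.31 and 0.24.

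A further 81 genes of lipid handling, in 8 lists, were read beside the 10. Between libraries 43 had at least 50 UMIs, of which 2 were past 1.5-fold higher and 1 lower, beside the 3.02% and 6.51% of all genes given above. Hilpda, which encodes an inhibitor of droplet lipolysis, was higher at 10.3 and 23.1, a log2 ratio of 1.15 from 25 and 42 UMIs. Acadl, of fatty acid oxidation, was higher at 21.1 and 31.9, a log2 ratio of 0.60. Lipe, the hormone-sensitive lipase, was lower at 18.2 and 8.81, a log2 ratio of -1.02 from 44 and 16 UMIs.

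Between classes, 24 of the 81 had at least 50 UMIs in both libraries, of which 3 were past 1.5-fold higher in Cst7-dominant cells in both and 6 lower in both. In the control alone, 4 of 27 such genes were higher and 11 lower, and after photoconversion 3 of 25 were higher and 6 lower. Over all genes 11% and 12.9% were higher and 32.2% and 27.9% lower in the control and photoconversion libraries. The share of all genes past the fold in both was not computed, so the counts are not read as a result about these genes. Those higher in both were Nceh1, a neutral cholesteryl ester hydrolase, at log2 2.17 and 1.59, Scd2, a fatty acid desaturase, at 1.95 and 2.03, and Lrpap1, the chaperone of LDL-receptor-family proteins, at 1.07 and 1.10. The genes lower in both included 4 of 10 genes of lysosomal lipid handling, a count from which nothing is read. Pla2g15, a lysosomal phospholipase, was at -1.51 and -1.64, Asah1, acid ceramidase, at -0.66 and -0.89, Smpd1, acid sphingomyelinase, at -0.60 and -1.57, and Npc1, the membrane partner of Npc2, at -0.63 and -0.79. The remaining 2 were Lrp1, a receptor for apolipoprotein E, at -0.62 and -0.84, and Pnpla2, the triglyceride lipase of droplets, at -0.62 and -1.57. With the TMM shift of 0.275 added, the control values of Asah1, Smpd1, Npc1, Lrp1 and Pnpla2 lay inside 1.5-fold. When scaled to total UMIs, Npc2 and its partner Npc1 stood on opposite sides. Npc1 was at 63.1 in P2ry12-dominant and 40.9 in Cst7-dominant control cells, a ratio of 0.648 (0.441 to 0.957). After photoconversion it was at 81.3 and 47.3, a ratio of 0.582 (0.383 to 0.897). The TMM shift brings the control ratio of Npc1 closer to no difference.

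The most abundant genes of the lists added few differences. Psap, encoding the saposin precursor, had class log2 ratios of -0.55 and -0.58, Lamp1, a lysosomal membrane protein, 0.04 and -0.05, Acsl5, an acyl-CoA synthetase, -0.10 and -0.09, and Hadha, of fatty acid oxidation, 0.13 and 0.08. Nr1h2, encoding LXR beta, which controls Abca1 and Abcg1, was at -0.37 and -0.54. Its ratios were 0.774 (0.496 to 1.22) and 0.698 (0.408 to 1.225), and both intervals included no difference. Mylip, an LXR target, was at -0.96 and -0.03. Pltp, a phospholipid transfer protein, was at -2.10 in the control, from 67.8 in P2ry12-dominant and 15.7 in Cst7-dominant cells, and was under the minimum after photoconversion, at 2.14 and 24.4. Dhcr7, of cholesterol synthesis, was at 0.13 and -0.01. Acsl4, Plin3 and Abca3 were under 50 UMIs in the class comparison.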

How the data were processed

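The authors deposited raw UMI counts per gene and barcode for each library, for which the submitters' processing notes name bcl2fastq, Cell Ranger and the mm10 build. Per the file headers, Cell Ranger was at version 3.0.2. Counting by strand is not given in the sources used here, so reads of Fabp3, Soat1 and Ch25h, which overlap antisense genes, may include theirs. Coordinates come from the GENCODE annotation of GRCm38, the same assembly. The 10 genes and all lists were chosen with earlier results of these data known.

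Counts were summed over the kept cells of a library or class and scaled to their total (Python 3.11.15, scipy 1.17.1). Sums carry exact Poisson, ratios exact conditional binomial and shares Clopper-Pearson intervals at 95%. The exception is the ratio of class ratios between libraries, whose 95% interval is a normal approximation on the log scale. Log2 ratios of genes with at least 50 UMIs over both groups had 0.5 counts added to each sum. The ratio step was tested on simulated data. Cells were thinned to 1000 UMIs with seed 1, which left out 116 control and 45 photoconversion cells. No doublet caller was run, and an alternative left out the 2% deepest cells. TMM factors came from edgeR 4.0.16 and enter alternatives only. Besides the 10 genes, Apoe, Cst7 and P2ry12, the text names the 2 most abundant genes of each list, those past 1.5-fold between libraries or between classes in both, and up to 3 genes most like each well-counted gene at a rho of at least 0.2. Of 13 disease-associated markers, 1 is not analysed here.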

Additional observations from a re-analysis of the deposited data

Results flagged for a closer look

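Signal for 2 of the genes was found in barcodes that the comparisons left out. In barcodes with under 200 detected genes, 1340 control and 1608 photoconversion barcodes, Lpl was higher after photoconversion, at 88.6 CPM in the control (13 UMIs) and 201 after photoconversion (25 UMIs), a ratio of 2.275 (1.12 to 4.84). Plin2 was higher in the same barcodes, at 13.6 (2 UMIs) and 88.7 (11 UMIs), a ratio of 6.508 with an interval from 1.42 to 60.4. The same comparison was made for the 10 genes in these barcodes and in those over 10% mitochondrial UMIs, and the other 18 intervals included 1. In kept cells the Plin2 ratio was 0.820 and the Lpl ratio 1.10. Markers of other cells differed in the same barcodes. The 7 neutrophil markers summed to 1124 (165 UMIs) in the control and 5198 (645 UMIs) after photoconversion, with Retnlg and Cxcr2 at 0 in both and Mmp9 at 0 in the control. Sorted cells were gated as negative for Ly6G, a neutrophil surface protein. The 5 monocyte markers summed to 149.9 and 274, and the 7 border macrophage markers to 61.3 and 16.1. Their part in these values was not tested.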

How the results depend on the processing

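Each library is 1 pool of 3 mice, so differences between mice and between groups cannot be told apart, and depth limits Fabp3, Plin2 and Ch25h most. No paired analysis was possible because each group is a single library and the labels carry no replicate numbers. Of 120 alternative values for single genes between libraries, 107 stayed within the counting interval, 12 moved outside it and 1 turned a ratio whose interval excluded 1, Lpl at 0.987 when thinned. Among ratios whose interval included 1, Fabp3, Lipa, Soat1, Plin2, Abca1, Abcg1 and Ch25h each crossed 1 under at least 1 alternative, with Lipa and Ch25h at 0.807 when thinned. Of 234 between classes, 209 stayed, 25 moved and none turned a ratio whose interval excluded 1. The causes were not tested.

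The summed library ratio was 1.16 under TMM (1.162) and under median-of-ratios scaling (1.163), 1.21 with cells weighed equally and 1.04 with an equal class mix, added later. When thinned, 1 gene, Fabp3, was past 1.5-fold between libraries. The summed class ratio in the control was 2.57 under TMM, 2.59 under median-of-ratios scaling (added later), 2.01 with cells weighed equally and 2.29 with classes by 3 UMIs. After photoconversion it was 2.17 under TMM (2.165), 2.16 under median-of-ratios scaling, 1.75 thinned, 1.71 with cells weighed equally, 1.69 with classes from thinned counts and 2.10 with classes by 3 UMIs, and 5 genes in place of 8 were past 1.5-fold without the 10 richest cells, because Fabp3, Plin2 and Ch25h then had no P2ry12-dominant UMIs and so no ratio.

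The summed rho with Apoe in the control was 0.21 at 500 UMIs, 0.25 in Cst7-dominant cells, 0.14 in P2ry12-dominant cells and 0.23 without Npc2. After photoconversion it was 0.44 unthinned and -0.0286 in P2ry12-dominant cells, where it turned.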
